A study of Mus musculus with 13 samples.

Results

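The 10 genes described here form the output side of the circadian clock together with several of its core regulators. They are the PAR bZIP transcription factors Dbp, Tef and Hlf, the nuclear receptors Nr1d1 and Nr1d2, the repressors Per2, Per3 and Cry1, and the activators Clock and Npas2. They were taken by symbol from 27141 genes listed in the count and FPKM tables (FPKM, fragments scaled by gene length and by the total of the library), and all 10 were among the 19884 genes that passed the low-count filter. The genes were not selected by a threshold on their values. The cells were dHeps, hepatocytes isolated from WT mice with liver injury caused by CCl4, and every group was kept for 16 days in serum-free Hepatocyte Maintenance Medium. The control group received the solvent DMSO. The 5C group received GSK429286A (G, an inhibitor of the kinase ROCK), CID755673 (C, an inhibitor of protein kinase D), ETC-1002 (E, an activator of AMPK), Salidroside (S), a glycoside from plants, and forskolin (F), which switches on adenylate cyclase. A minus sign and a letter mark the groups from which that compound was left out, namely 5C-C, 5C-E, 5C-F, 5C-G and 5C-S. There were 13 libraries in 7 groups, 2 in each group except 5C-S, which had 1. Columns of the tables name the group and not the replicate, so the libraries of a group are called A and B, and these letters pair nothing between groups. The labels do not say whether libraries came from separate mice, and p-values measure only the spread between libraries. They also give no hour of harvest, and all libraries come from 1 day of culture, so a level cannot be placed in a daily cycle.

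The clock of mammalian cells is a feedback loop. CLOCK or its relative NPAS2 pairs with BMAL1 and activates genes that carry an E-box, among them the Per and Cry genes, Dbp and Nr1d1, and the PER and CRY proteins then repress their own activators. REV-ERB alpha and beta, encoded by Nr1d1 and Nr1d2, repress genes with ROR elements, including Clock, Npas2 and Cry1. DBP, TEF and HLF bind the D-box and pass the rhythm on to liver genes for the metabolism of drugs, heme and fatty acids. In liver, Dbp is among the genes with the strongest daily rhythm, whereas the rhythms of Tef and Hlf are weaker.

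Total counts per library were 30195867 to 45491932, and the lowest count of a member was 79, for Per3. All 8 hepatocyte markers of the list were detected in every library, with a summed FPKM between 3080 and 21600, as the label says. The macrophage markers moved with the groups. Their summed FPKM was 4690 and 4710 in DMSO, 4760 and 6730 in 5C-G, 1520 and 1850 in 5C-F, 931 and 1590 in 5C-C, 660 and 779 in 5C-E, 585 in 5C-S and 476 and 558 in 5C, with Clec4f at counts of 0 to 75. In these bulk cultures fewer cells of a type and less RNA per cell cannot be told apart. GC content moved with the groups as well. Across 12935 genes the Spearman correlation of log2 fold change with GC content of the transcript was -0.30 for 5C against DMSO. Against 5C it was 0.55 for 5C-S, 0.54 for 5C-C, 0.48 for 5C-G, 0.47 for 5C-E and 0.38 for 5C-F. The members span this range, from Clock (41.49% GC) and Nr1d2 (42.12%) over Hlf (44.93%) to Nr1d1 (56.82%) and Dbp (61.57%), with the other 5 between 51.89% and 54.35%. Each call of a member below is therefore given with its value from a fit that holds a GC and length offset where the offset ends it.

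A member was called when edgeR's quasi-likelihood test gave a Benjamini-Hochberg adjusted p under 0.05 over all genes and a log2 fold change beyond 1. By this rule 1 of 10 members was called in 5C against DMSO, where 4.55% of all genes were called. Leaving out G called 2 members (all genes, 13.1%), leaving out C called 7 (all genes, 20.2%), leaving out E called 1 (all genes, 1.96%) and leaving out F called 1 (all genes, 4.84%), each against 5C. The median log2 fold change of the members was -0.26 in 5C against DMSO, -1.23 in 5C-C, -0.44 in 5C-G, -0.30 in 5C-E and 0.01 in 5C-F, and that of all genes lay between -0.01 and 0.01. With the GC and length offset, 4 members were called in 5C-C, where 10.1% of all genes were. These 4 groups share the same 5C libraries as their control, so their folds are not independent of each other.

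**Figure D1:**
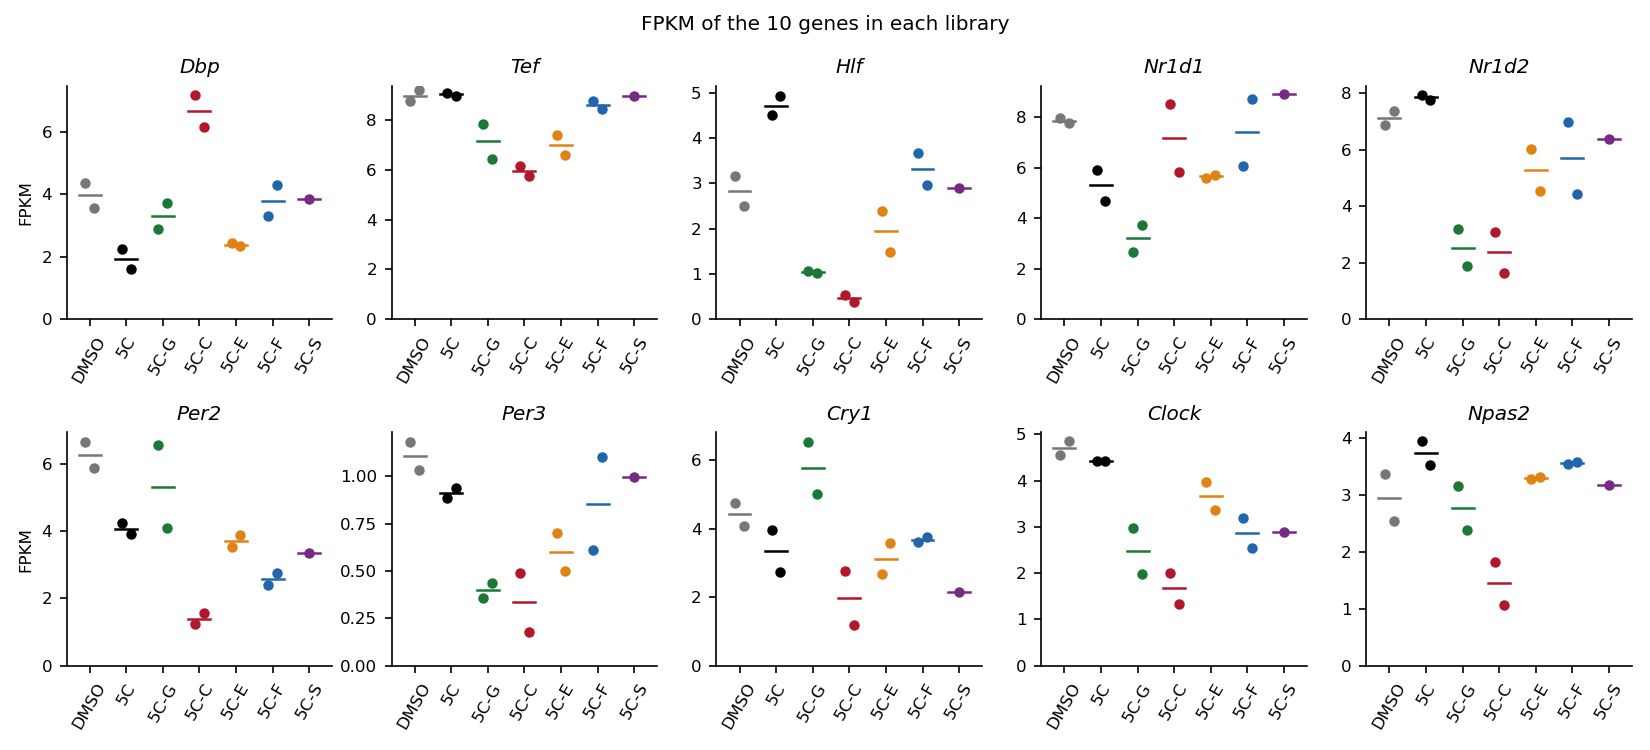
FPKM of each of the 10 genes (y axis, from 0) in every library of the 7 groups (x axis); points are libraries and lines are group means. Hlf was lowest in 5C-C (0.387 and 0.534) and highest in 5C (4.51 and 4.92), whereas Dbp was highest in 5C-C (6.16 and 7.18) and lowest in 5C (1.61 and 2.25).

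Dbp (ENSMUSG00000059824, protein coding, GRCm39 chromosome 7, 45354512 to 45359627, plus strand) encodes the D-box binding protein. Its FPKM was 4.37 and 3.55 in DMSO, 2.25 and 1.61 in 5C, 2.89 and 3.71 in 5C-G, 7.18 and 6.16 in 5C-C, 2.43 and 2.33 in 5C-E, 3.31 and 4.28 in 5C-F and 3.85 in 5C-S. Both 5C libraries lay below every other library, and both 5C-C libraries lay above every other library. Dbp was lower in 5C than in DMSO by the test, with a log2 fold change of -1.11 (SE 0.27, adjusted p = 0.0153). It rose when C was left out (1.95, SE 0.27, adjusted p = 7.77e-05) and when F was left out (1.07, SE 0.27, adjusted p = 0.0187). The 5C-G difference of 0.92 (SE 0.27, adjusted p = 0.0172) stayed under the fold threshold and was 0.11 (adjusted p = 0.821) with the offset, and 5C-E differed from 5C by 0.23 (SE 0.27, adjusted p = 0.756). With the GC and length offset no Dbp call remained. The value became -0.95 (adjusted p = 0.0255) in 5C against DMSO, 0.96 (adjusted p = 0.0104) in 5C-C and 0.57 (adjusted p = 0.174) in 5C-F. The direction was kept in these 3 comparisons. Leaving out DMSO A (-0.94, adjusted p = 0.215) or 5C B (-0.91, adjusted p = 0.244) ended the call in 5C against DMSO. The call in 5C-F ended without 5C A (1.31, adjusted p = 0.0644), without 5C B (0.88, adjusted p = 0.196) and without 5C-F B (0.92, adjusted p = 0.109).

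Of the annotated exonic bases of Dbp, 15.53% overlap Sphk2, a sphingosine kinase gene on the opposite strand, and the library kit does not mark strand, so reads from the shared bases cannot be assigned to either gene. Sphk2 moved in the same direction as Dbp, with log2 fold changes of -0.99 in 5C against DMSO, 0.35 in 5C-E, 0.91 in 5C-F, 1.07 in 5C-C and 1.17 in 5C-G. Its part in the Dbp values was not tested. The fold of Dbp in 5C-C was the larger of the pair, and the fold of Sphk2 in 5C-G was slightly larger than that of Dbp.

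Hlf (ENSMUSG00000003949, chromosome 11, 90227221 to 90281761, minus strand), the hepatic leukemia factor, went the other way. Its FPKM was 3.15 and 2.49 in DMSO, 4.51 and 4.92 in 5C, 1.07 and 1.03 in 5C-G, 0.534 and 0.387 in 5C-C, 2.39 and 1.49 in 5C-E, 3.67 and 2.97 in 5C-F and 2.90 in 5C-S. The 5C libraries were the highest of the 13, and each group lacking a compound lay below them without overlap. Group means spanned 10.2-fold, the widest range among the 10 genes. Hlf fell when C was left out (-3.20, SE 0.28, adjusted p = 2.1e-06), when G was left out (-2.03, SE 0.27, adjusted p = 5.1e-05) and when E was left out (-1.35, SE 0.26, adjusted p = 0.00663). The value for 5C-F was -0.40 (SE 0.25, adjusted p = 0.334), and 5C against DMSO gave 0.67 (SE 0.26, adjusted p = 0.164). The offset left Hlf called in 5C-C (-2.46, adjusted p = 3.31e-06), 5C-G (-1.54, adjusted p = 0.000138) and 5C-E (-1.27, adjusted p = 0.00268). Over the 11 alternatives with another scaling, tool or set of libraries, the fold stayed between -3.40 and -1.97 in 5C-C and between -2.17 and -1.48 in 5C-G, and both calls held in all 11. The 5C-E call held in 7 of 11 and ended without 5C B (-1.24, adjusted p = 0.101) and without 5C-E B (-1.05, adjusted p = 0.225), and in both limma fits. Summed hepatocyte markers were also below 5C (10900 and 11000) in the same 3 groups, at 4600 and 5010 in 5C-C, 6470 and 7780 in 5C-G and 3080 and 3580 in 5C-E. The single 5C-S library was below 5C too (7110), DMSO was level with it (11900 and 10700), and 5C-F was above it (21600 and 17100), while the Hlf libraries of these groups were all below 5C. Of 8 stellate cell and fibroblast markers, Reln, Lrat and Pdgfra were called lower in 5C-G and 5C-C, and Reln in 5C-E. Des was called higher in these 3 groups, and the sum over the list was 641 to 1210 FPKM in the 13 libraries. The FPKM of Reln was 2.47 and 2.26 in 5C, 0.884 and 0.472 in 5C-G, 0.0905 and 0.0832 in 5C-C and 0.516 and 0.388 in 5C-E. The summed FPKM was 3.42 to 23.3 for endothelial cell markers and 1460 to 3420 for cholangiocyte markers. Alb made up most of the hepatocyte sum (9440 and 9430 in 5C). Of the 8 hepatocyte markers, 4 were called lower in 5C-G, 4 in 5C-C and 5 in 5C-E. Tat, Cps1 and Cyp2e1 were among them in all 3 groups. Of all genes, 13.1%, 20.2% and 1.96% were called there in either direction. Not all markers moved alike, since Apoa1 rose in 5C-G (1.63, adjusted p = 6.78e-05). The part of these markers in the Hlf values was not tested.

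Tef (ENSMUSG00000022389, chromosome 15, 81686622 to 81711064, plus strand), the thyrotroph embryonic factor, was the steadiest member and was called in none of the comparisons. Its FPKM ran from 5.76 in 5C-C B to 9.19 in DMSO B, and group means differed by at most 1.52-fold. Both 5C-C libraries (6.17 and 5.76) were the lowest of the 13. Against 5C, the log2 fold change was -0.43 in 5C-C (SE 0.16, adjusted p = 0.0464), -0.44 in 5C-E (SE 0.16, adjusted p = 0.193) and -0.21 in 5C-G (SE 0.16, adjusted p = 0.383).

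The balance among the PAR bZIP transcripts can be read inside each library, where library scaling cancels, although GC content does not. The ratio of Dbp to Hlf in FPKM was 0.498 and 0.327 in 5C and 1.39 and 1.42 in DMSO. It was 13.4 and 15.9 in 5C-C, 2.7 and 3.6 in 5C-G, 1.02 and 1.56 in 5C-E, 0.903 and 1.44 in 5C-F and 1.33 in 5C-S. Hlf thus exceeded Dbp in both 5C libraries and in 5C-F A, and Dbp exceeded Hlf in the other 10 libraries. The ratio of Hlf to Tef was 0.497 and 0.549 in 5C, 0.360 and 0.271 in DMSO, 0.136 and 0.160 in 5C-G and 0.0866 and 0.0673 in 5C-C. These ratios were not tested.

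**Figure D2:**
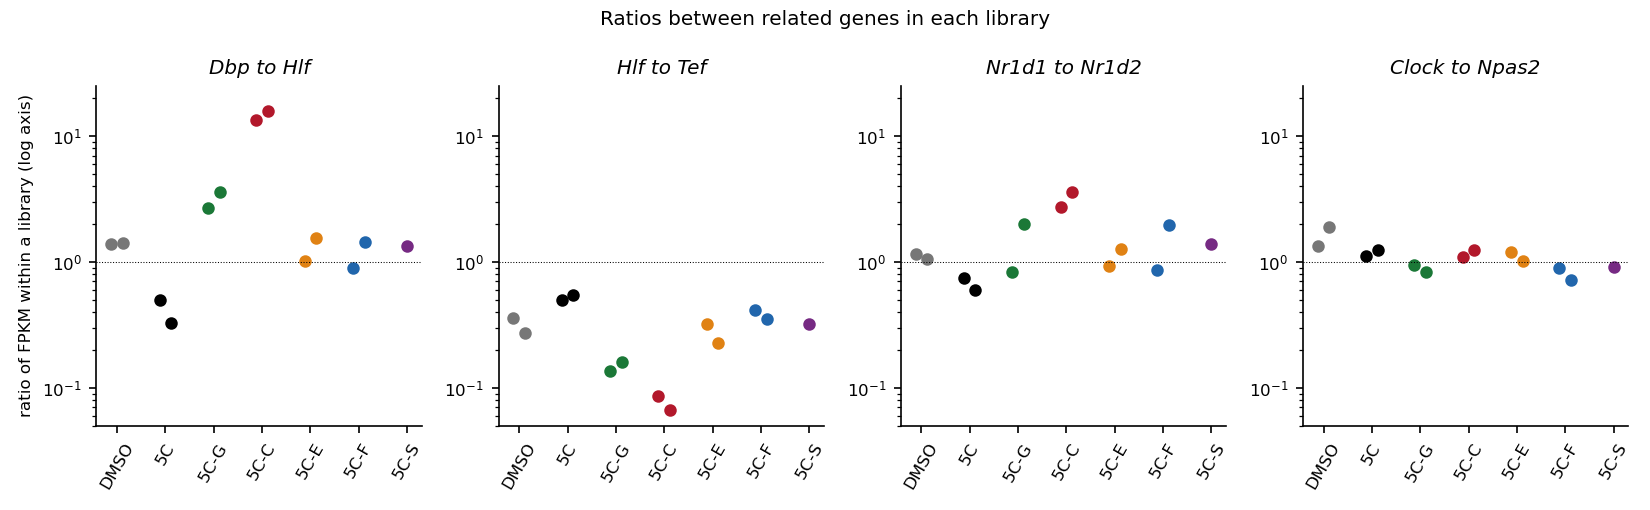
Ratio of FPKM between related genes within each library (log y axis) by group (x axis); each point is a library and the dotted line marks equal levels. Dbp to Hlf was below 0.5 in both 5C libraries and above 13 in both 5C-C libraries, while Clock to Npas2 stayed between 0.715 and 1.91.

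The letters of 7 motifs were looked for on both strands from 250 bases before to 50 bases after the annotated start of the Ensembl canonical transcript (GENCODE annotation, GRCm39). The D-box TTATGTAA or TTACGTAA stood in 0.86% of 17390 protein-coding promoters and in 2 of the 10 members, Per2 and Per3. The E-box CACGTG stood in 8.86% of these promoters and in Tef and Cry1. The variant E-box CACGTT stood in 5.55% and in Nr1d1 (at -72), Cry1 (at -48) and Per2 (at 6). The cAMP response element TGACGTCA stood in 2.71% and in Hlf, at position 10 after the start. The 250 bases before the start are printed for Per2 and Per3, which carry the site that DBP, TEF and HLF bind, and for Tef and Cry1, which carry the site that CLOCK and NPAS2 bind with BMAL1. They are written 5′ to 3′ on the strand of the gene with these motifs in capitals, from chr1:91387047-91387296 (minus), chr4:151129141-151129390 (minus), chr15:81695365-81695614 (plus) and chr10:85020950-85021199 (minus).
Per2: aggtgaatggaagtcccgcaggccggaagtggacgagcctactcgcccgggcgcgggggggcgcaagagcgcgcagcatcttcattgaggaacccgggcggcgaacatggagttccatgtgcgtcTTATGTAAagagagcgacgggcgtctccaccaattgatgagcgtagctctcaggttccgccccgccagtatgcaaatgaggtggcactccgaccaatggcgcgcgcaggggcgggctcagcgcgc
Per3: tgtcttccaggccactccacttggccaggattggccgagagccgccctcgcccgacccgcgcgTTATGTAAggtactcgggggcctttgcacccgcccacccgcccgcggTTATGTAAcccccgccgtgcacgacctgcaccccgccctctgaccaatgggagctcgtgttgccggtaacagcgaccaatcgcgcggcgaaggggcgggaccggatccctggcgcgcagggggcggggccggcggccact
Tef: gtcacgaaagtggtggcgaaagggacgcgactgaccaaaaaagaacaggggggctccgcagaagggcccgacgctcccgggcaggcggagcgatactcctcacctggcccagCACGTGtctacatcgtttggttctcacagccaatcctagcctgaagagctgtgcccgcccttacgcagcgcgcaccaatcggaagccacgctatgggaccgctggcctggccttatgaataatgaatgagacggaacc
Cry1: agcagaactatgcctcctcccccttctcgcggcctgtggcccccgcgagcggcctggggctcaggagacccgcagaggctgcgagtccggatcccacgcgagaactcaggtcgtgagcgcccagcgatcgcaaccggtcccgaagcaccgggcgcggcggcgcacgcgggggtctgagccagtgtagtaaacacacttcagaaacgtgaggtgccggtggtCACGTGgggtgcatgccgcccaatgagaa
The D-box of Per2 began at position -125 and those of Per3 at -187 and -140, while the E-boxes of Tef and Cry1 began at -138 and -29. Dbp and Nr1d1 held no CACGTG in this window, which says only that the letters were not in these 300 bases. The remaining motifs were short and common. The ROR element core AGGTCA stood in 14.42% of promoters and in Dbp and Nr1d2, the shorter cAMP element TGACG in 25.49% and in 2 members, and CCAAT in 38.9% and in 6 members. A match of letters is a description and not a measured binding site.

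Per2 (ENSMUSG00000055866, chromosome 1, 91343700 to 91387069, minus strand) and Per3 (ENSMUSG00000028957, chromosome 4, 151081373 to 151129140, minus strand) encode period proteins, the negative limb of the loop. The FPKM of Per2 was 6.65 and 5.86 in DMSO, 4.23 and 3.91 in 5C, 6.55 and 4.08 in 5C-G, 1.24 and 1.56 in 5C-C, 3.52 and 3.89 in 5C-E, 2.40 and 2.74 in 5C-F and 3.34 in 5C-S. The 5C-C libraries were the lowest and the 5C-F libraries came next, whereas 5C-G overlapped both DMSO and 5C. Per2 fell when C was left out (-1.37, SE 0.22, adjusted p = 0.00023), and the offset left this call in place (-1.28, adjusted p = 0.000171). The call held in all 11 alternatives with another scaling, tool or set of libraries, where the fold lay between -1.58 and -1.08. The values for 5C against DMSO (-0.69, SE 0.22, adjusted p = 0.0711) and for 5C-F against 5C (-0.57, SE 0.22, adjusted p = 0.105) did not pass.

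Per3 was the least abundant member. Its FPKM was 1.18 and 1.03 in DMSO, 0.887 and 0.935 in 5C, 0.356 and 0.439 in 5C-G, 0.488 and 0.180 in 5C-C, 0.700 and 0.500 in 5C-E, 0.610 and 1.10 in 5C-F and 0.997 in 5C-S. It fell when C was left out (-1.31, SE 0.40, adjusted p = 0.0162; with the offset -1.09, adjusted p = 0.0412), a call that held in 6 of 11 alternatives and ended without 5C A (-1.36, adjusted p = 0.0527), without 5C B (-1.22, adjusted p = 0.0803) and without 5C-C B (-0.76, adjusted p = 0.174). In 5C-G the value was -1.05 (SE 0.39, adjusted p = 0.0601), so it was not called, whereas 4 of 11 alternatives called it. These were DESeq2 (-1.07, adjusted p = 0.0391), total counts only (-1.20, adjusted p = 0.0401), no low-count filter (-1.11, adjusted p = 0.00953) and the fit of only both groups (-1.05, adjusted p = 0.0393). With the offset it was -0.93 (adjusted p = 0.0876). Both 5C-G libraries lay below both 5C libraries.

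Cry1 (ENSMUSG00000020038, chromosome 10, 84967560 to 85021252, minus strand) encodes the cryptochrome that represses CLOCK and BMAL1. Its FPKM was 4.77 and 4.09 in DMSO, 3.97 and 2.73 in 5C, 6.55 and 5.03 in 5C-G, 2.77 and 1.18 in 5C-C, 2.67 and 3.59 in 5C-E, 3.63 and 3.75 in 5C-F and 2.16 in 5C-S. Cry1 was highest in 5C-G, where both libraries lay above all others. It was called in none of the comparisons with 5C. The 5C-G difference was 0.92 (SE 0.32, adjusted p = 0.0419), under the fold threshold, and the 5C-C difference was -0.62 (SE 0.32, adjusted p = 0.15), with overlapping libraries.

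Nr1d1 (ENSMUSG00000020889, chromosome 11, 98658752 to 98666188, minus strand) and Nr1d2 (ENSMUSG00000021775, chromosome 14, 4230545 to 4266624, plus strand) encode REV-ERB alpha and REV-ERB beta, heme-binding repressors. The FPKM of Nr1d1 was 7.95 and 7.76 in DMSO, 5.91 and 4.69 in 5C, 2.65 and 3.74 in 5C-G, 8.53 and 5.83 in 5C-C, 5.59 and 5.70 in 5C-E, 6.06 and 8.72 in 5C-F and 8.91 in 5C-S. The 5C-G libraries were the lowest of the 13, and the 5C-C libraries overlapped those of 5C. No comparison with 5C passed for Nr1d1. The value in 5C-G was -0.58 (SE 0.26, adjusted p = 0.113), which became a call with the offset (-1.03, adjusted p = 0.00307), and the value in 5C-C was 0.60 (SE 0.25, adjusted p = 0.0778). Thra, a thyroid hormone receptor gene on the opposite strand with an FPKM of 12.9 to 23.6, overlaps 52.25% of the annotated exonic bases of Nr1d1. Thra was called in none of the comparisons (-0.29 in 5C-G and 0.15 in 5C-C), and its part in the Nr1d1 values was not tested.

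Nr1d2 gave another picture. Its FPKM was 6.88 and 7.38 in DMSO, 7.94 and 7.76 in 5C, 3.20 and 1.87 in 5C-G, 3.10 and 1.63 in 5C-C, 6.04 and 4.53 in 5C-E, 6.99 and 4.44 in 5C-F and 6.37 in 5C-S. The 4 libraries of 5C-G and 5C-C lay below the other 9. Nr1d2 fell when G was left out (-1.52, SE 0.29, adjusted p = 0.00137) and when C was left out (-1.58, SE 0.30, adjusted p = 0.00061). With the offset the values were -0.97 (adjusted p = 0.00212) and -0.72 (adjusted p = 0.0134), still lower but short of the fold threshold. The ratio of Nr1d1 to Nr1d2 was 0.744 and 0.604 in 5C, 1.16 and 1.05 in DMSO, and 2.75 and 3.58 in 5C-C. In 5C-G it was 0.828 in library A and 2.00 in library B, so the pair of libraries stood on either side of equal levels.

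Clock (ENSMUSG00000029238, chromosome 5, 76342860 to 76452846, minus strand) and Npas2 (ENSMUSG00000026077, chromosome 1, 39232705 to 39402323, plus strand) encode alternative partners of BMAL1. The FPKM of Clock was 4.55 and 4.86 in DMSO, 4.42 in both 5C libraries, 2.98 and 1.98 in 5C-G, 2.01 and 1.33 in 5C-C, 3.97 and 3.37 in 5C-E, 3.19 and 2.55 in 5C-F and 2.89 in 5C-S. DMSO and 5C were the highest, with every library lacking a compound below them. Clock fell when C was left out (-1.25, SE 0.22, adjusted p = 0.000388). With the offset this difference was -0.05 (adjusted p = 0.834), and that of 5C-G went from -0.72 (SE 0.22, adjusted p = 0.0215) to 0.08 (adjusted p = 0.756). Tmem165, a Golgi membrane protein gene on the opposite strand with an FPKM of 24.3 to 43.0, overlaps 11.87% of the annotated exonic bases of Clock. It was called in none of the comparisons (-0.41 in 5C-C and -0.25 in 5C-G), and its part in the Clock values was not tested. Clock has the lowest GC content of the members. The median gene of its bin, the lowest of 10 equal bins of GC content, changed by -0.84 in 5C-C and by -0.54 in 5C-G.

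The FPKM of Npas2 was 3.36 and 2.54 in DMSO, 3.95 and 3.52 in 5C, 3.15 and 2.39 in 5C-G, 1.83 and 1.06 in 5C-C, 3.28 and 3.31 in 5C-E, 3.55 and 3.57 in 5C-F and 3.17 in 5C-S. The 5C-C libraries were the lowest of the 13. Npas2 fell when C was left out (-1.22, SE 0.26, adjusted p = 0.00154), and the value with the offset was -1.23 (adjusted p = 0.000926). The call held in 9 of 11 alternatives and ended without 5C-C B (-0.89, adjusted p = 0.0268). The Clock to Npas2 ratio was highest in DMSO (1.35 and 1.91) and lay between 1.02 and 1.25 in 5C, 5C-C and 5C-E. It was below 1 in 5C-G (0.944 and 0.826), 5C-F (0.899 and 0.715) and 5C-S (0.911).

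**Figure D3:**
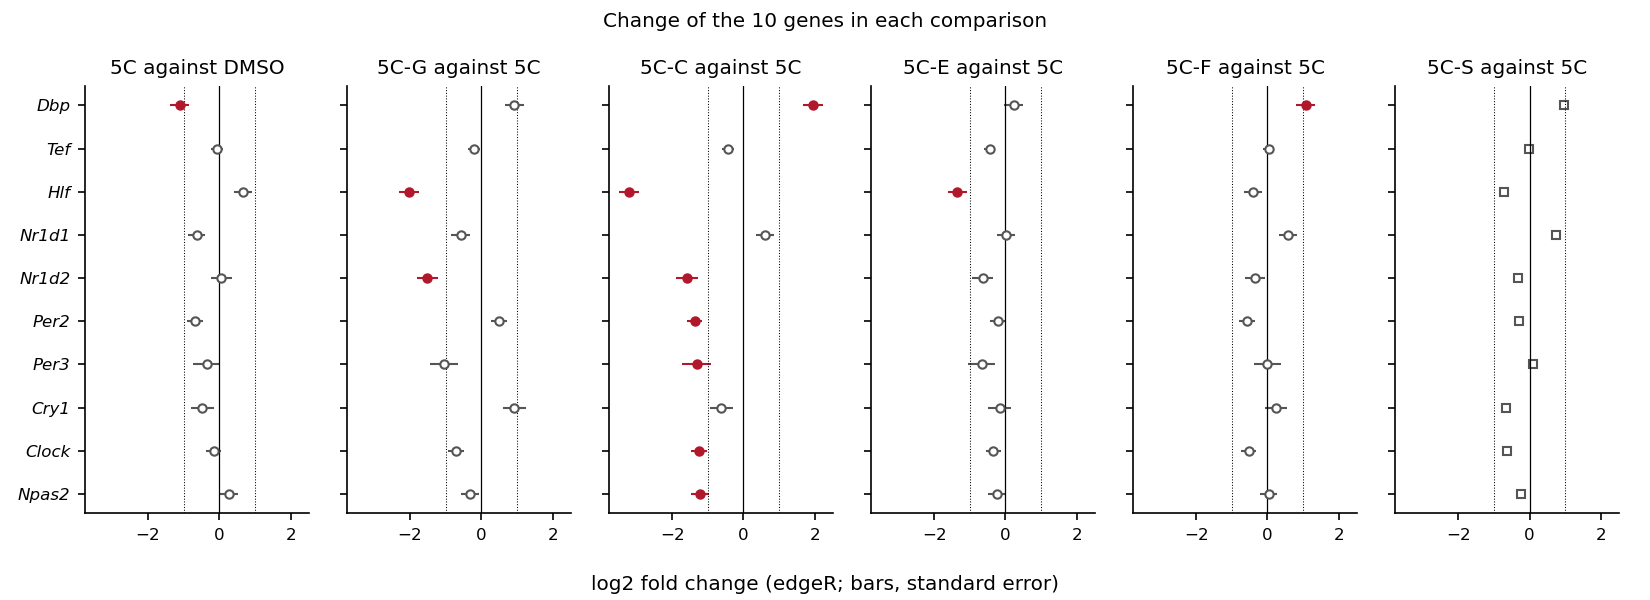
Log2 fold change of the 10 genes (rows) in 5C against DMSO and in each group lacking a compound against 5C (columns); bars are standard errors, filled red points were called, dotted lines mark a log2 fold change of 1 in either direction, and squares for 5C-S have no test. In 5C-C, 6 genes were called lower, as were 10.5% of all genes, and Dbp alone was called higher (1.95), as were 9.65%.

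**Figure D4:**
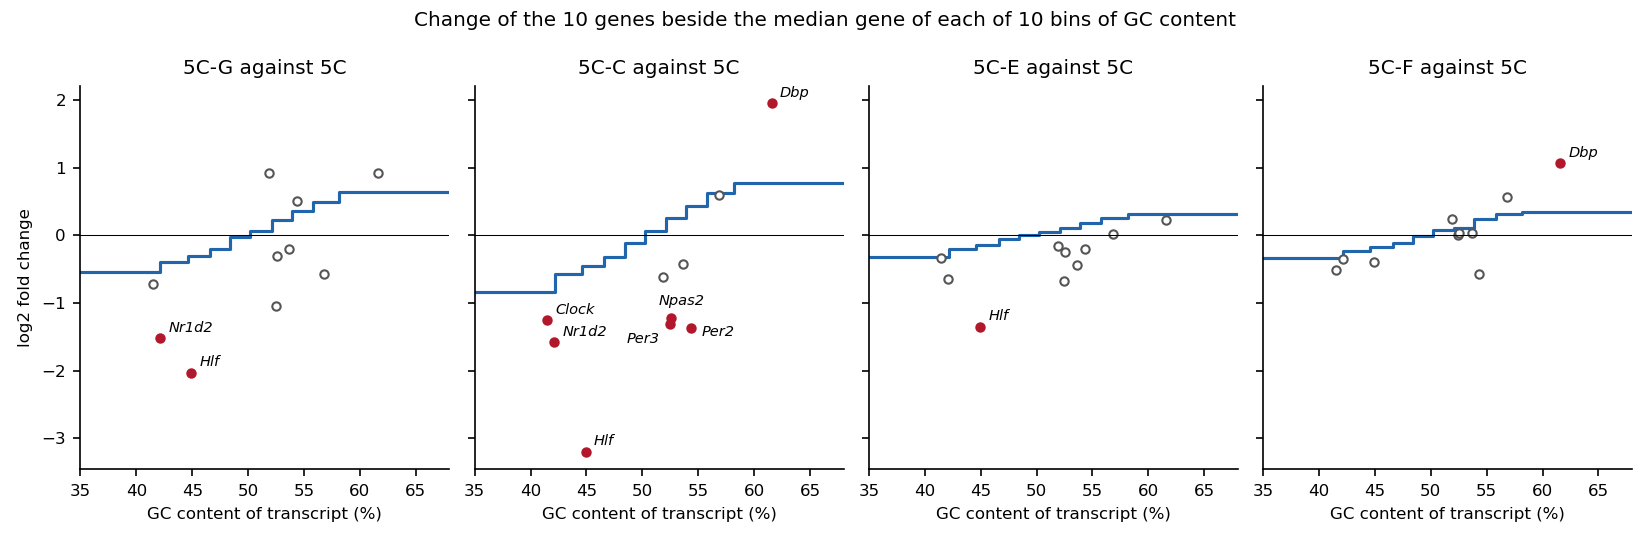
Log2 fold change of each of the 10 genes (y axis) against GC content of its transcript (x axis, %) when G, C, E or F was left out; filled red points were called, and the blue line is the median of all genes with a usable level in 10 equal bins of GC content. In 5C-C the line rises from -0.84 to 0.78, and Hlf (-3.20) lies far below it while Dbp (1.95) lies above it.

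The direction of Dbp was opposite to that of the other called members in 5C-C. Dbp lies in the highest of the 10 GC bins, where the median gene changed by 0.78 in 5C-C, and Hlf lies in the bin between 44.58% and 46.60% GC, where the median gene changed by -0.46. Per2, Per3 and Npas2 have GC contents between 52.48% and 54.35%, where bin medians were 0.25 and 0.44, and their own values were below 0. The part of GC content in these values was not tested beyond the fit with the offset. Leaving out S gave a single library and hence no test. None of the 10 members differed from 5C by more than 1 on the log2 scale in 5C-S, where 18.9% of all genes did. The largest differences there were 0.98 for Dbp, 0.74 for Nr1d1, -0.72 for Hlf, -0.65 for Cry1 and -0.63 for Clock. With the offset these were 0.48, 0.47, -0.42, -0.73 and -0.15. Without 5C A, Dbp passed 1 (1.22), and without 5C B it was 0.78.

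Against DMSO, 4 members were lower in 5C-G by the test, where 5.83% of all genes were called and 2.72% were called lower. They were Hlf (-1.36, adjusted p = 0.00521), Nr1d1 (-1.22, adjusted p = 0.00815), Nr1d2 (-1.45, adjusted p = 0.00643) and Per3 (-1.40, adjusted p = 0.0274), and with the offset Nr1d1 alone was called (-1.50, adjusted p = 0.000522; all genes, 3.35%). The offset values of the others were -0.89 for Hlf (adjusted p = 0.0233), -0.99 for Nr1d2 (adjusted p = 0.0054) and -1.13 for Per3 (adjusted p = 0.0663). In 5C-C, 6 members were lower than in DMSO (all genes, 22.1% called and 11.7% called lower). These were Hlf (-2.54, adjusted p = 5.26e-06), Per2 (-2.06, adjusted p = 5.17e-06), Per3 (-1.66, adjusted p = 0.00359), Nr1d2 (-1.52, adjusted p = 0.000714), Clock (-1.41, adjusted p = 0.000117) and Cry1 (-1.10, adjusted p = 0.0126). Hlf, Per2, Per3 and Cry1 stayed called with the offset (all genes, 14.1%), whereas Nr1d2 went to -0.74 (adjusted p = 0.00931) and Clock to -0.31 (adjusted p = 0.123). In 5C-E, 0 members were called against DMSO by edgeR (all genes, 6.09%), with Per3 alone at an unadjusted p under 0.05 beyond the fold threshold and 0 called by DESeq2. In 5C-F, Per2 was lower than in DMSO (-1.26, adjusted p = 0.00106; all genes, 7.4%), and the offset gave -0.97 (adjusted p = 0.00217). Dbp was not called against DMSO in these 4 groups. Its value in 5C-C was 0.84 (adjusted p = 0.0181), and 0.01 (adjusted p = 0.996) with the offset. Of the calls in 5C-G against DMSO, Per3 lost its call when any of the 4 libraries was left out (adjusted p between 0.093 and 0.166), Nr1d1 without DMSO A (adjusted p = 0.0714), DMSO B (adjusted p = 0.0586) or 5C-G A (-0.92), Nr1d2 without DMSO B (adjusted p = 0.0535) or 5C-G B (adjusted p = 0.101), and Hlf without DMSO A (adjusted p = 0.0741). In 5C-C against DMSO, Cry1 lost its call without DMSO A (-0.94, adjusted p = 0.103) or 5C-C B (-0.62, adjusted p = 0.154).

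Over the 13 libraries, log2 levels of Hlf, Nr1d2, Per3, Clock and Npas2 followed each other, with Pearson correlations from 0.71 to 0.89. Hlf and Nr1d2 correlated at 0.89, and Nr1d2 and Clock at 0.89 as well. Tef correlated with these genes too, at 0.79 with Hlf, 0.74 with Per3, 0.72 with Nr1d2, 0.64 with Clock and 0.61 with Npas2. Dbp ran against this block, at -0.66 with Npas2, -0.65 with Clock, -0.63 with Hlf and -0.54 with Nr1d2, and more weakly with Per3 (-0.29). The points share groups, depth and the tilt with GC content, so these values only describe the libraries. Among 12932 genes with a usable level, the gene most like Hlf over the 13 libraries was Zfp280c (r = 0.956), followed by the bilirubin glucuronosyltransferase gene Ugt1a1 (0.955). Tef was most like the urate oxidase gene Uox (0.979), with the cytochrome gene Cyp2e1 at 0.96. Dbp was most like the DNA repair gene Ogg1 (0.909), Per2 most like Stxbp5 (0.971) and Clock most like Trappc8 (0.986).

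Of 12 other clock genes, 2 were called in 5C-G against 5C, where 13.1% of all genes were. None was called in 5C against DMSO by edgeR (all genes, 4.55%). Ciart alone had an unadjusted p under 0.05 beyond the fold threshold there, and DESeq2 called 0. In 5C-G, Bhlhe41, a repressor of E-box genes, rose (1.04, adjusted p = 0.0149; with the offset 1.44) and Rora, an activator at ROR elements, fell (-1.01, adjusted p = 0.00136; with the offset -0.18, adjusted p = 0.474). In 5C-C none was called by edgeR (all genes, 20.2%) and 0 passed at an unadjusted p under 0.05 with the fold threshold. DESeq2 called 1 there, Timeless, and the offset called 1, the casein kinase gene Csnk1e (-1.27, adjusted p = 0.000293, against -0.21 without the offset). The Rora call ended without 5C-G B (-0.87, adjusted p = 0.0201), and that of Bhlhe41 without 5C A (1.06, adjusted p = 0.0885), 5C B (0.97, adjusted p = 0.11) or 5C-G A (0.83, adjusted p = 0.0737). By edgeR none was called in 5C-E (all genes, 1.96%) or 5C-F (all genes, 4.84%). None passed there at an unadjusted p under 0.05 with the fold threshold or by DESeq2, whereas the offset called Bhlhe41 in 5C-F (1.15, adjusted p = 0.00666). Bmal1, listed as Arntl, had an FPKM between 1.17 in 5C-C B and 2.66 in DMSO A and was called in none of the comparisons.

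Of 9 clock-controlled and REV-ERB target genes, edgeR called 0 in 5C against DMSO (all genes, 4.55%) and 0 in 5C-F (all genes, 4.84%). DESeq2 and an unadjusted p under 0.05 with the fold threshold gave 0 in both as well. Elovl3, among the 9, had counts of only 0 to 15. Gys2, the liver glycogen synthase, fell when G (-1.67), C (-1.81) or E (-2.23) was left out, with adjusted p of 0.00158, 0.000519 and 0.000839. Its FPKM was 4.35 and 5.33 in 5C, 1.95 and 0.886 in 5C-G, 1.37 and 1.10 in 5C-C, and 1.31 and 0.853 in 5C-E. These were the same 3 groups in which Hlf fell. The pattern was not particular to these genes, since Tat, Cps1, Cyp2e1, Reln and Cyp2b10 were also called lower in all 3. In 5C-G, Insig2, a regulator of sterol synthesis, also fell (-1.04, adjusted p = 0.00236; with the offset -0.88). In 5C-C, the deubiquitinase gene Usp2 (-1.14, adjusted p = 0.00232) and the transcription factor gene Klf9 (-1.17, adjusted p = 0.000599; with the offset -0.42) fell as well. Insig2 was not called without 5C-G B (-0.72), Usp2 without 5C-C A (-0.99) and Klf9 without 5C-C B (-0.93). The offset added calls for the deadenylase gene Noct in 5C-F (from 0.98 to 1.47, adjusted p = 0.00145) and 5C-C (from 0.10 to 1.06, adjusted p = 0.00501), for Nampt, of NAD synthesis, in 5C-G (from 0.63 to 1.14, adjusted p = 1.08e-05) and for Usp2 in 5C-E (from -0.95 to -1.11, adjusted p = 0.0151).

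Of 7 PAR bZIP target genes, Cyp2b10, a cytochrome for xenobiotics, was called in 5C against DMSO and in the 4 tested comparisons with 5C. Its FPKM was 9.90 and 8.70 in DMSO, 88.3 and 78.0 in 5C, 3.58 and 3.64 in 5C-G, 24.8 and 27.1 in 5C-C, 30.7 and 21.6 in 5C-E, 194 and 139 in 5C-F and 78.5 in 5C-S. It rose in 5C against DMSO (3.08, adjusted p = 1.3e-07) and in 5C-F against 5C (1.11, adjusted p = 0.00416), and fell in 5C-G (-4.39), 5C-E (-1.74) and 5C-C (-1.51). The 5C-F call ended without 5C B (1.05, adjusted p = 0.0801) and without 5C-F A (0.79, adjusted p = 0.0448), and the offset gave 0.90 (adjusted p = 0.00555). Reads of Cyp2b10 may be shared with near-identical members of its family. Ppara, a regulator of fatty acid oxidation, fell in 5C-G (-1.27, adjusted p = 0.0191) and in 5C-C (-1.43, adjusted p = 0.00685). The former call ended without 5C A (adjusted p = 0.0956), 5C B (adjusted p = 0.0575) or 5C-G B (adjusted p = 0.203), and the latter without 5C-C B (adjusted p = 0.0877). Cyp2a5 was called higher in 5C-C (2.44, adjusted p = 0.0256), with an FPKM of 6.74 in library A and 1.01 in library B against 0.575 and 0.989 in 5C. Without 5C-C A the value was 0.57 (adjusted p = 0.669), without 5C A 2.09 (adjusted p = 0.17) and without 5C B 2.93 (adjusted p = 0.0685). Cyp7a1, the rate-limiting enzyme of bile acid synthesis, had counts of 36 and 35 in 5C and 0 in both 5C-C libraries, at least 10.8-fold lower against a floor of 3 counts per library. Both 5C-E libraries were at 0 too, 5C-G had 8 and 0, DMSO 28 and 2, 5C-F 42 and 14, and 5C-S 24. Por, Alas1 and Nr1i3 were not called in any comparison with 5C, and Nr1i3 had counts of only 0 to 29. In 5C-C against DMSO, where 22.1% of all genes were called, 4 of the 7 PAR bZIP targets were called higher and 2 lower, and 5 of the 9 clock-controlled and REV-ERB targets were called lower. The offset (all genes, 14.1%) ended the calls of Por (0.62), Alas1 (0.97) and Cyp7a1 (-6.74, adjusted p = 0.0538). It also ended those of Wee1 (-0.93) and Klf9 (-0.46).

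Forskolin raises cAMP, and 6 cAMP response genes were therefore read beside the members. By edgeR none was called in 5C-F against 5C, where 4.84% of all genes were. None passed there by DESeq2 or at an unadjusted p under 0.05 with the fold threshold. Ppargc1a, a coactivator that also drives clock genes in liver, fell in 5C-G (-2.46, adjusted p = 0.00219) and in 5C-C (-2.06, adjusted p = 0.00388; with the offset -1.06, adjusted p = 0.0787). In 5C-G the offset also called Pck1 (-1.19, adjusted p = 0.00622), a gluconeogenesis enzyme. The FPKM of Ppargc1a was low, from 0.0581 in 5C-G B to 0.895 in 5C A.

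**Figure D5:**
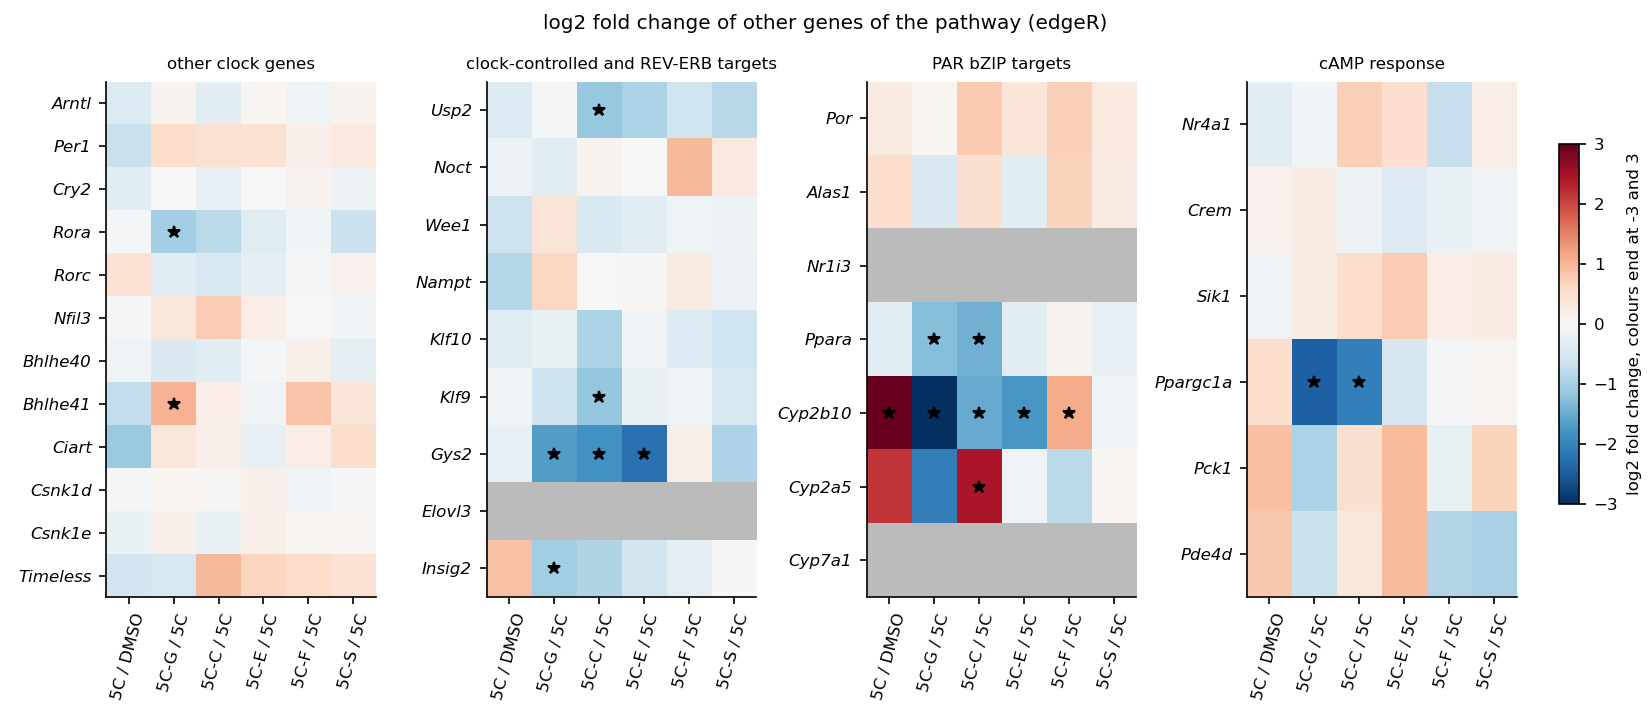
Log2 fold change (colour, ending at -3 and 3) of the other genes of the pathway (rows) in each comparison (columns), in 4 panels by list; stars mark calls, 5C-S has no test, and genes under an FPKM of 0.3 in every library are grey. Gys2 is starred in 5C-G (-1.67), 5C-C (-1.81) and 5C-E (-2.23), and Cyp2b10 in each of the 5 columns that have a test.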

How the data were processed

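Poly(A) or other selection of the RNA is not given in the sources used here. Libraries were made with a kit that does not mark strand, sequenced as paired ends, and mapped to GRCm39, and the submitters' processing notes name featureCounts, Subread and DESeq2. The deposited count table held whole, unnormalized counts per gene. The deposited FPKM were, by the authors' processing, counts divided by 1 length per gene and the library total, within 0.2% for 23997 of 23997 genes with counts in several libraries. Counts were fitted with edgeR 4.0.16 in R 4.3.3 (TMM, filterByExpr with minimum count 10, quasi-likelihood test, all 13 libraries, 6 residual degrees of freedom). The study names DESeq2, and here DESeq2 1.42.0 and limma 3.58.1 served as alternatives, with a GC and length offset, other filters and left-out libraries. FPKM are scaled by total counts and log2 fold changes by TMM, so their ratios differ slightly. Pairs of libraries in a group differed by more than counting noise (chi-square per degree of freedom 8.32 to 93.8). Members, gene lists and the rule for named genes (all members, and list genes called in 5C against DMSO or in a comparison with 5C) were chosen with earlier results of these data known, and 1 list gene is not reported here. The floor of counts covers counting error only. Standard errors come from the edgeR fit and include the spread between libraries. The edgeR fit with TMM was tested on simulated data for 5C-G against 5C. The offset and the other alternatives were not tested in this way.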

Additional observations from a re-analysis of the deposited data

How the results depend on the processing

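Over the tested comparisons there were 23 calls of a member, of which the offset for GC content and length ended 12 and kept 11, and it added 1. The offset changed the number of members called from 1 to 0 in 5C against DMSO, from 7 to 4 in 5C-C against 5C, from 1 to 0 in 5C-F against 5C, from 4 to 1 in 5C-G against DMSO, from 6 to 4 in 5C-C against DMSO and from 1 to 0 in 5C-F against DMSO. In 5C-G against 5C it kept 2, with Nr1d1 in place of Nr1d2. The limma fit on log2(FPKM + 1) gave 0 in 5C against DMSO, 0 in 5C-E and 0 in 5C-F against 5C, and 2 in 5C-G against DMSO, and with a pseudocount of 0.1 it gave 0 in 5C-E and 0 in 5C-F against 5C. Scaling by total counts only gave 0 in 5C-F against 5C. With no fold threshold the counts were 5 in 5C-G against 5C, 2 in 5C-E against DMSO and 2 in 5C-F against DMSO, and 5C-E against DMSO gave 1 with an unadjusted p and 1 with only both groups in the fit. Leaving out each library in turn gave 0 to 1 called in 5C against DMSO, 2 to 3 in 5C-G, 5 to 8 in 5C-C, 0 to 1 in 5C-E and 0 to 1 in 5C-F against 5C, and 1 to 3 in 5C-G and 5 to 7 in 5C-C against DMSO. In 5C-G against DMSO, 1 member was called without DMSO A and 1 without DMSO B. Where a call changed, the cause was not tested.

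Signs changed only for members that were not called. With the offset, Clock was 0.05 in 5C-F and 0.08 in 5C-G, Dbp and Nr1d1 were -0.03 and -0.17 in 5C-E, Nr1d2 was 0.01 in 5C-F and -0.02 in 5C against DMSO, and Tef was 0.11 in 5C against DMSO. The limma fits and total counts gave Tef 0.01, 0.01 and 0.01 in 5C against DMSO. In 5C-F, limma with pseudocounts of 0.1 and 1 and total counts gave -0.07, -0.05 and -0.07 for Npas2, -0.13, -0.05 and -0.09 for Per3, and -0.07, -0.06 and -0.07 for Tef. Over left-out libraries, Cry1 and Nr1d1 in 5C-E ran from -0.39 to 0.11 and from -0.09 to 0.18, and Npas2, Per3 and Tef in 5C-F from -0.03 to 0.10, from -0.44 to 0.33 and from -0.04 to 0.10. No paired analysis was possible because the columns carry no replicate numbers of the labels. With 2 libraries a group, a lone library left after omission is assumed to vary like the other groups.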

Other observations

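2 further clock genes are named here after their values were seen. Nfil3, a repressor that competes with DBP, TEF and HLF for the D-box, had an FPKM of 38.1 and 40.0 in 5C and 64.0 and 54.9 in 5C-C. Its log2 fold change of 0.77 in 5C-C (edgeR, adjusted p = 0.00169) stayed under the fold threshold, and with the offset for GC content and length it was 0.11 (adjusted p = 0.689). Per1, the third period gene, had an FPKM of 17.5 and 16.6 in DMSO and 11.6 and 11 in 5C. Its log2 fold change in 5C against DMSO was -0.67 (edgeR, adjusted p = 0.0208), under the fold threshold, and -0.42 (adjusted p = 0.0734) with the offset. Against 5C its level differed by 0.46 in 5C-C (adjusted p = 0.0418; with the offset 0.50, adjusted p = 0.0128) and by 0.54 in 5C-G (adjusted p = 0.0239; with the offset 0.49, adjusted p = 0.018).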
